A study of Mus musculus with 23 samples.

Results

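Lymphoid-primed multipotent progenitors (LMPP) that lacked both p110α and p110δ were set against LMPP that lacked p110α alone, so the arrays differed in p110δ on a background where p110α was already missing. These were the 3 arrays titled as p110αδ DKO LMPP (here DKO) and the 3 titled as p110α-/- LMPP (here p110α-/-), chosen by title, and they made up 6 of the 23 arrays of the series. Both groups came from bone marrow of mice, from pooled recipients of marrow transplants, and both lacked p110α. The sort gate was lineage-negative, c-Kit-positive, Flk2-positive, CD150-negative and CD48-positive. Each group held 2 male arrays and 1 female array, and replicate 2 was the female array of both. The other arrays used were the 3 p110δ-/- LMPP arrays, which shared the fit and its filter and were set against WT in the last comparison, the 2 wild-type (WT) LMPP arrays, and the DKO and p110α-/- arrays of hematopoietic stem cells (HSC). The sources used here give no allele, Cre line or age of the mice, and do not say how many host cells remained in the sort. Nor do the labels say whether the 3 arrays of a group stem from different pools, so a p-value measures the spread between these arrays, which may be technical.

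Class I phosphoinositide 3-kinases (PI3K) turn a membrane lipid into a second messenger that recruits the kinase AKT, which holds FOXO transcription factors out of the nucleus. p110α and p110δ are catalytic subunits of these kinases. p110δ is found mainly in leukocytes and acts downstream of cytokine and antigen receptors, and p110α is found in most tissues. LMPP give rise to lymphoid cells and to granulocytes and monocytes, and have little megakaryocyte and erythroid output.

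The promoters of 4 genes that the results turn on are shown with the motifs a search found in them: the 2 genes with the smallest p-values (Il1r2 and Plaur), an immediate early gene (Nr4a1) and a neutrophil gene (Retnlg). Each window holds 250 bases before the gene's start and 50 after it, in RefSeq's GRCm38.p6, plus strand: Il1r2 at chr1:40085843-40086142, Plaur at chr7:24462233-24462532, Nr4a1 at chr15:101266596-101266895 and Retnlg at chr16:48872358-48872657. Capitals mark matches on either strand to 4 motifs, which are AP-1 (TGANTCA), a CRE-like element (TGCGTCA), C/EBP (TTGCNNAA) and FOXO (GTAAACA). The CRE-like element was chosen after the sequences were read.
Il1r2: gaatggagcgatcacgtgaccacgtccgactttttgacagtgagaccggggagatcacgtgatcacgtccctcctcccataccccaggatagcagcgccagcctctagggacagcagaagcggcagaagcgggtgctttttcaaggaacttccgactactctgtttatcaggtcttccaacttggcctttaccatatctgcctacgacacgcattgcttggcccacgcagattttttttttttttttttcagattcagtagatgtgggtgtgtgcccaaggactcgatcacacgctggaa
Plaur: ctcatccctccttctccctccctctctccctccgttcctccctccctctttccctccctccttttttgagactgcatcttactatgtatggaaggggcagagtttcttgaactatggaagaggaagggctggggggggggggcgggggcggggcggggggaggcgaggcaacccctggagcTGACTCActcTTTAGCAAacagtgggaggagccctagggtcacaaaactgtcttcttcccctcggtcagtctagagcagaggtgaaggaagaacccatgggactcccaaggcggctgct
Nr4a1: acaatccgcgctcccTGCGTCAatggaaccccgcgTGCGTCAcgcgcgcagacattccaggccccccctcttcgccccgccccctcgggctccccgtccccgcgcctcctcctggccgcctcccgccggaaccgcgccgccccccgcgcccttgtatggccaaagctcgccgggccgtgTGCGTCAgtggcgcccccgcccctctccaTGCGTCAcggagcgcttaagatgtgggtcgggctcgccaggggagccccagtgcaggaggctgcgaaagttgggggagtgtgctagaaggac
Retnlg: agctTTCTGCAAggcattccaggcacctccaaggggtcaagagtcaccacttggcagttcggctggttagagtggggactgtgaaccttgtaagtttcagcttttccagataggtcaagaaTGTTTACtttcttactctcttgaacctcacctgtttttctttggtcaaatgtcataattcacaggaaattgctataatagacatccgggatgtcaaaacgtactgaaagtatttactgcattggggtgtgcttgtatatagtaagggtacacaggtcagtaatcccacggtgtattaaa
The Plaur window held 1 match each to AP-1 and C/EBP, whose first bases lay 69 and 59 bases before the start. The Nr4a1 window held 4 CRE-like matches, at 235, 215, 71 and 42 bases before the start. The Retnlg window held 1 C/EBP match at 246 bases and 1 FOXO match at 129 bases before the start, and these letters were not in the Il1r2 window. No matches overlapped. Of all 32851 RefSeq windows of this length, 7.81% held the AP-1 letters, 2.12% the CRE-like letters, 10.8% the C/EBP letters and 3.65% the FOXO letters. A match is a run of letters and not a measured binding site.

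The array files held log2 RMA values for transcript clusters, the array's gene-level units. Medians of the 6 arrays lay between 4.87 and 4.96. Mean correlations with the remaining knockout LMPP arrays lay between 0.973 and 0.982, the lowest being DKO replicate 2. In a principal component analysis of the 6 arrays the first component, with 30.9% of the variance, set DKO replicate 2 (66.4) and p110α-/- replicate 3 (36.8) apart from the other arrays, which lay between -40.5 and -10.2. The second, with 25.7%, separated the groups, with DKO arrays between -47.1 and -25.3 and p110α-/- arrays between 16.9 and 49.4. The HSC gene Vwf measured 5.43 to 5.84 in DKO LMPP and 5.42 to 5.65 in p110α-/- LMPP, against 8.55 to 10.15 in the HSC arrays of the same genotypes. Flt3, Kit and the genes of the deleted subunits, Pik3ca and Pik3cd, were not analysed here, so neither the sort nor the knockout was checked at those genes. Of Y chromosome clusters, 6 were higher in all 4 male arrays than in both female arrays by more than 1 log2 unit and 0 were the other way round.

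The main comparison asked which transcripts differed in LMPP when p110δ was missing besides p110α. None passed the test. Most tested members of the NF-kB and interleukin-1, immediate early and quiescence, neutrophil granule and heavy chain variable lists had lower means in DKO. Limma made 0 calls among 32978 clusters at an adjusted p below 0.05 (0.0%), with 2378 at an unadjusted p below 0.05 (7.21%), of which 1375 were lower (4.17%) and 1003 higher (3.04%) in DKO. A plain equal-variance test on the 6 arrays also made 0 calls, with 1908 at an unadjusted p below 0.05. Data were also simulated with each cluster's own mean and spread, and with clusters independent of each other. There limma recovered 72% of 100 shifts of 2 log2 units and 79% of 100 shifts of 4, and also called 13 unchanged clusters. The simulation left out correlation between clusters, so these rates do not measure the power of the comparison. Groups did not overlap, all 3 DKO arrays lying below or above all 3 p110α-/- arrays, for 1970 clusters on the lower side (5.97%) and 2101 on the higher side (6.37%).

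Names were at hand for 303 genes, 283 of them tested. The authors listed each for a difference between a knockout and WT, 37 of them in HSC tables alone, and most of these tables rest on arrays used here. A named gene is therefore no independent evidence of its direction. Of the 283, 166 had a lower and 117 a higher mean in DKO, with a median log2 difference (DKO minus p110α-/-, here and below) of -0.27 against 0.02 over all clusters. At an unadjusted p below 0.05 there were 85 lower and 25 higher genes. Without overlap there were 52 lower and 39 higher genes. For 3 of the 283 (Mmp9, Ighv1-31 and Igkv5-48) all DKO arrays lay below the level of 4.94 that a cluster's mean had to reach, so they were tested through their p110α-/- values. Without DKO replicate 2 the genes that were lower without overlap came to 118, with 10.5% of all clusters then on that side, without p110α-/- replicate 1 to 95, with 9.62%, and without p110α-/- replicate 3 to 68, with 12.7%.

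Il1r2, the decoy receptor that binds interleukin-1 without signalling, had the smallest p-value. It measured 6.51, 7.15 and 6.24 in DKO, against 9.16, 9.53 and 8.92 in p110α-/-. All 3 DKO values lay more than a log2 unit below the lowest p110α-/- value. The difference was -2.57 (SE 0.24), with a limma adjusted p of 0.0870. Plaur, the urokinase receptor of migrating leukocytes, measured 9.18, 8.60 and 9.39 in DKO, against 11.48, 11.64 and 11.59 in p110α-/-. Its p110α-/- values were nearly equal and its groups stood well apart, with a difference of -2.51 (SE 0.25, limma adjusted p 0.0870). Neither gene passed in the main fit. Both passed when the 2 WT arrays joined the fit (limma adjusted p 0.0253 each), and their adjusted p ranged from 0.0123 to 0.827 for Il1r2 and from 0.0123 to 0.825 for Plaur over the alternatives.

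**Figure D1:**
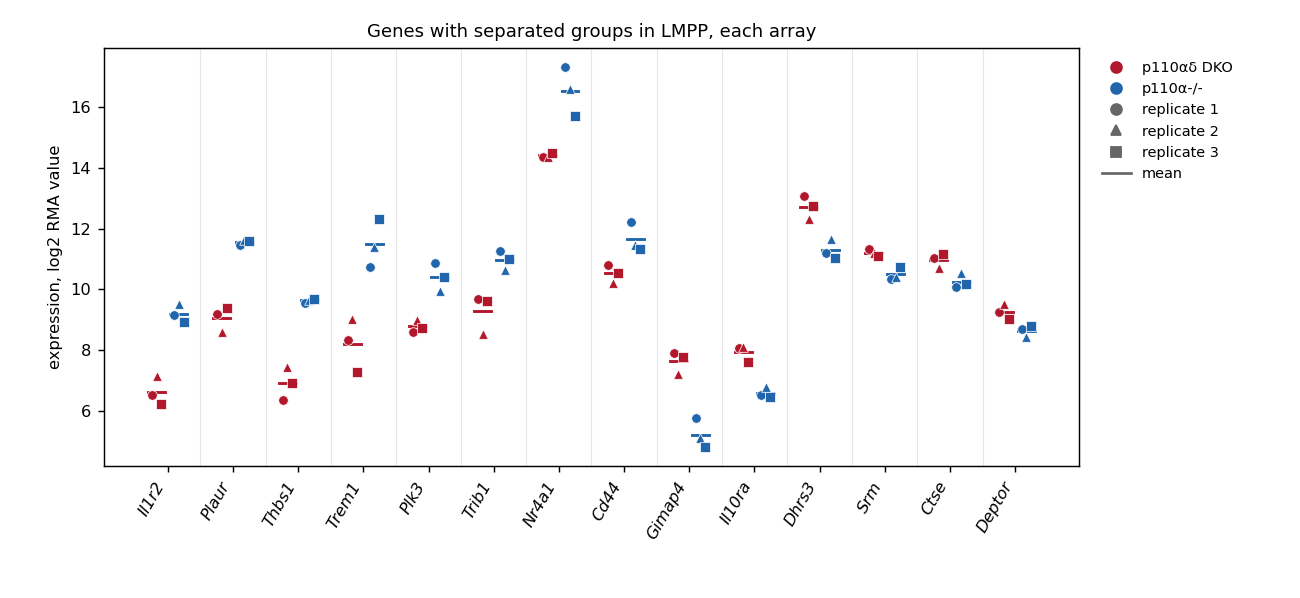
Log2 RMA values (vertical axis) of 14 genes whose groups did not overlap, with one point per array, red for DKO and blue for p110α-/-, marker shape for the replicate number and a bar for the mean. Il1r2, Plaur and Thbs1 lie lower in DKO by more than 2 log2 units, and Gimap4 lies higher by 2.42.

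The 7 tested members of the NF-kB and interleukin-1 list all had lower means in DKO, with a median of -1.17. Of these, 5 did not overlap between groups, and none passed the test. Beside them, 52 of the 283 named genes and 5.97% of all clusters were lower without overlap. Tnfaip3, the deubiquitinase A20 that limits NF-kB signalling, measured 11.48, 12.11 and 11.19 in DKO, against 13.60, 12.32 and 12.37 in p110α-/-. The groups stayed apart by a narrow margin, with p110α-/- replicate 1 well above the rest. Il1b, the cytokine itself, measured 5.12, 5.67 and 4.97 in DKO and 5.71, 6.50 and 8.30 in p110α-/-, so its difference of -1.58 leaned on p110α-/- replicate 3. The chemokine gene Cxcl16 differed by -0.75 (SE 0.21). Il1r1, the signalling interleukin-1 receptor, differed by -0.22 (SE 0.44), and its groups overlapped.

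Enzymes of eicosanoid synthesis lay lower in DKO as well. Alox5, which makes leukotriene precursors, measured 5.46, 6.60 and 5.32 in DKO, against 6.86, 8.06 and 8.66 in p110α-/-. The groups met closely between DKO replicate 2 and p110α-/- replicate 1, with a difference of -2.07 (SE 0.48, limma adjusted p 0.436). The cyclooxygenase genes Ptgs1 and Ptgs2 differed by -0.88 and -0.81 and overlapped, and none of these 3 genes passed.

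Thbs1, the matrix glycoprotein thrombospondin 1, measured 6.36, 7.45 and 6.93 in DKO, against 9.56, 9.66 and 9.70 in p110α-/-. Its groups were separated by over 2 log2 units, and the difference was -2.73 (SE 0.35, limma adjusted p 0.194). Adam8, a membrane metalloprotease of leukocytes, measured 5.92, 5.998 and 5.70 in DKO, against 6.91, 7.74 and 8.66 in p110α-/-. Of the 5 leukocyte adhesion genes tested, 4 had lower means, with a median of -1.15. Cd44, the hyaluronan receptor, differed by -1.15 (SE 0.26), and the β2 integrin gene Itgb2 by -1.82 (SE 0.50). Both were lower without overlap, beside 52 of the 283 named genes and 5.97% of all clusters on that side. Itgam, the αM integrin subunit of myeloid cells, differed by -1.72 (SE 0.61) and overlapped, as did Vcam1 at -1.08 (SE 0.74).

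Immediate early genes are switched on within minutes of a signal or of cell handling. The 4 tested members of the immediate early and quiescence list (Nr4a1, Cdkn1a, Klf4 and Klf2) all had lower means in DKO, with a median of -1.46. Of these, 3 did not overlap, beside 52 of the 283 named genes and 5.97% of all clusters on that side. The list mixes kinds of genes, and 3 of its 4 members also stand in the FOXO target list. Nr4a1, the nuclear receptor Nur77, measured 14.37, 14.37 and 14.49 in DKO, against 17.33, 16.58 and 15.71 in p110α-/-. The DKO arrays were almost equal while the p110α-/- arrays spread over more than a log2 unit, with a difference of -2.13 (SE 0.45, limma adjusted p 0.436). Cdkn1a, the cell cycle inhibitor p21, measured 10.10, 10.60 and 9.83 in DKO, against 13.12, 11.54 and 10.86 in p110α-/-. The Krüppel-like factor genes Klf4 and Klf2 differed by -1.26 (SE 0.38) and -0.57 (SE 0.26).

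All 4 tested members of the handling stress list also had lower means in DKO, with a median of -0.88. Its mean level over members was 8.19, 9.16 and 7.99 in DKO and 9.59, 8.83 and 9.41 in p110α-/-. Ddit3, the stress factor CHOP, measured 9.33, 9.15 and 9.37 in DKO, against 11.48, 9.41 and 9.55 in p110α-/-, with replicate 1 alone high. The part of handling in the lower means of the immediate early and quiescence list was not tested.

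Feedback inhibitors of receptor signalling had lower means in DKO in 3 of 3 tested cases. Dusp4, a phosphatase of MAP kinases, measured 7.09, 6.86 and 6.61 in DKO, against 9.09, 8.93 and 7.32 in p110α-/-. Its groups did not overlap, although p110α-/- replicate 3 lay close to DKO, and the difference was -1.59 (SE 0.42, limma adjusted p 0.455). Without p110α-/- replicate 3 the difference was -2.15 and passed (limma adjusted p 0.0322). Spry2, an inhibitor of receptor tyrosine kinase signalling, differed by -1.23 (SE 0.56), and Bambi, a pseudoreceptor that limits BMP signals, by -0.61 (SE 0.30).

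FOXO factors are held in the cytoplasm when PI3K is active. Of the 11 FOXO target genes tested, 10 had lower means in DKO and 1 a higher mean. Lower without overlap were 3, beside 52 of the 283 named genes and 5.97% of all clusters, and the median difference of the 11 was -0.90. Without p110α-/- replicate 1 the median was -0.56. None passed. Of the 11, 3 (Cdkn1a, Klf4 and Klf2) also stand in the immediate early and quiescence list and 2 (Gadd45a and Gadd45b) in the handling stress list. Trib1, a pseudokinase that directs C/EBPα to degradation, measured 9.70, 8.53 and 9.61 in DKO, against 11.28, 10.64 and 11.02 in p110α-/-, well apart at -1.70 (SE 0.34). Irs2, the insulin receptor substrate that feeds PI3K, measured 11.10, 10.81 and 10.84 in DKO, against 12.42, 11.96 and 11.09 in p110α-/-, and p110α-/- replicate 3 lay level with DKO. The growth arrest genes Gadd45a and Gadd45b differed by -1.09 and -0.90, Bcl6 by -0.27 and Sesn1, a sestrin that restrains mTORC1, by 0.26.

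Genes of the insulin, PI3K and mTOR pathway did not lean one way, with 4 lower and 3 higher means among 7 and a median of -0.004. The insulin receptor gene Insr and Rictor, a subunit of mTORC2, differed by -0.01 (SE 0.26) and -0.004 (SE 0.26), and both turned positive when the arrays were quantile normalised again. Deptor, an inhibitor bound to mTOR complexes, measured 9.27, 9.51 and 9.01 in DKO, against 8.69, 8.44 and 8.79 in p110α-/-. Its groups lay apart by a small gap, with a difference of 0.62 (SE 0.17, limma adjusted p 0.490). Pim2, a survival kinase, differed by 0.47 (SE 0.24).

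**Figure D2:**
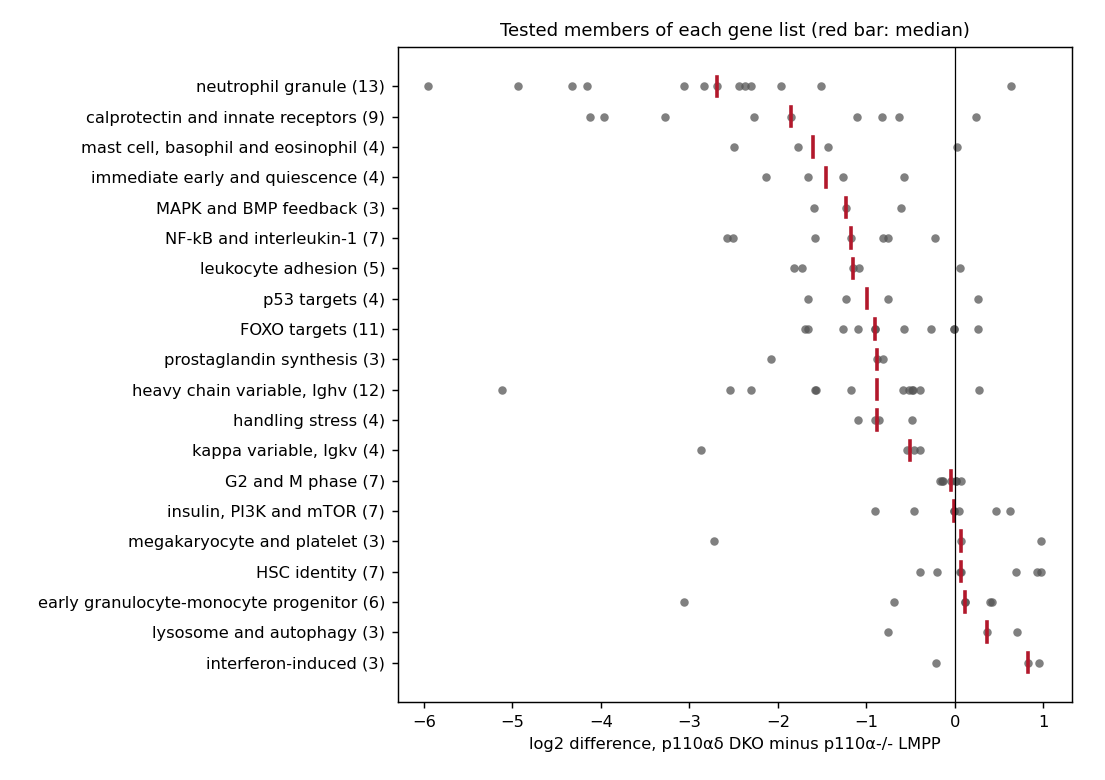
Log2 differences (horizontal axis, DKO minus p110α-/- LMPP) of the tested members of each gene list with at least 3 such members, whose number is in brackets. Each point is a gene and the red bar is the list's median, which runs from -2.69 for neutrophil granule genes to 0.83 for interferon-induced genes.

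Neutrophil granule genes had the lowest median of the lists, at -2.69, with 12 of 13 means lower in DKO. Together with the calprotectin subunits S100a8 and S100a9, 14 of 15 had lower means, all 14 had an unadjusted p below 0.05 and none passed. Beside them, 85 of the 283 named genes and 4.17% of all clusters were lower at that unadjusted p. Of the 283 named genes 52 were lower without overlap, with 5.97% of all clusters, and of the 15 only 2 were. These were Retnlg, a resistin-like secreted protein, and Mmp9, a gelatinase of late granules. Retnlg measured 6.79, 6.43 and 5.81 in DKO, against 10.32, 9.54 and 13.99 in p110α-/-. Every p110α-/- value lay over 2 log2 units above every DKO value, with a difference of -4.94 (SE 1.148, limma adjusted p 0.436). Mmp9 measured 4.56, 4.47 and 4.67 in DKO, against 5.14, 6.91 and 8.95 in p110α-/-. Its DKO values were below the filter, so it lends no support to the count.

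For the other members DKO replicate 2 lay high. S100a8 measured 11.997, 16.54 and 11.69 in DKO, against 15.92, 18.22 and 18.45 in p110α-/-. Ltf, the granule iron binder lactoferrin, measured 7.78, 12.87 and 6.81 in DKO, against 12.64, 16.51 and 16.15 in p110α-/-, a difference of -5.95 (SE 1.68). In both genes DKO replicate 2 reached just past p110α-/- replicate 1, and the remaining arrays of each group were far apart. The antimicrobial peptide gene Camp differed by -4.16 (SE 1.41), the neutrophil surface antigen Cd177 by -4.33 (SE 1.174), Wfdc21 by -3.06 (SE 1.00) and lipocalin 2, Lcn2, by -2.38 (SE 0.98). Cebpe, the transcription factor of late granulocyte maturation, differed by -1.51 (SE 0.59).

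The mean of the 15 genes was 8.201, 10.54 and 7.93 in DKO, against 10.25, 12.41 and 13.21 in p110α-/-. Without DKO replicate 2, and likewise without p110α-/- replicate 1, 14 of the 15 did not overlap on the lower side, and without p110α-/- replicate 3 it was 2. Of all clusters, 10.5%, 9.62% and 12.7% then lay on that side. In sorted bulk cells, fewer cells of a type and less RNA per cell cannot be told apart.

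**Figure D3:**
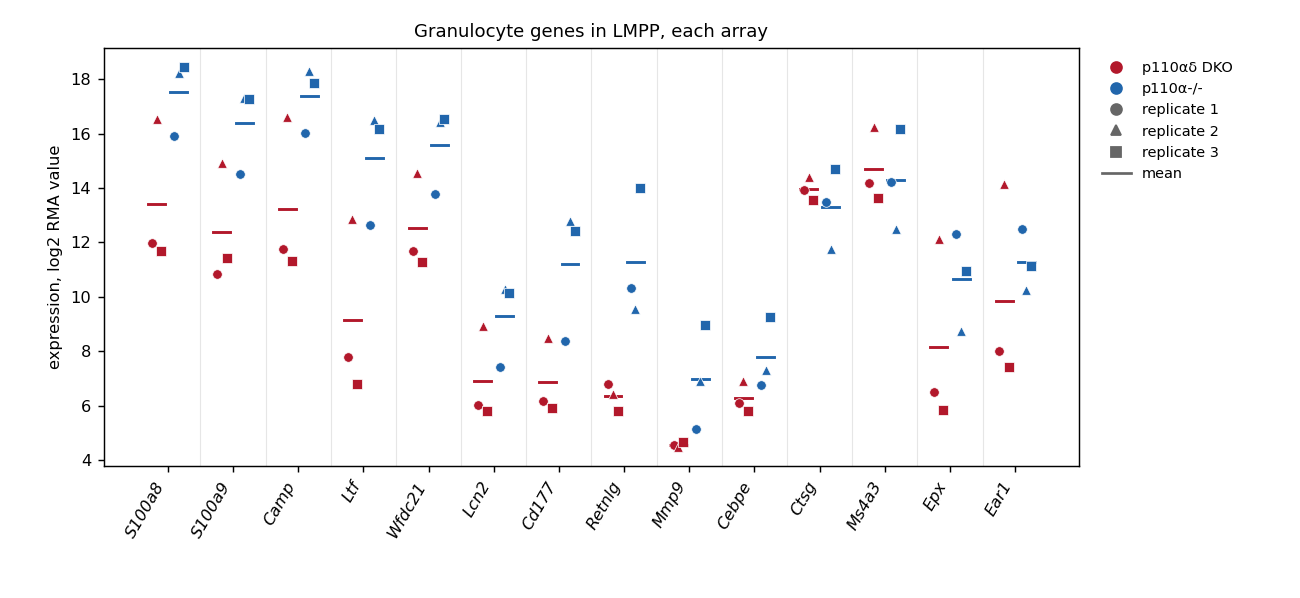
Log2 RMA values (vertical axis) of 14 granulocyte genes in each LMPP array, red for DKO and blue for p110α-/-, with marker shape for the replicate and a bar for the mean. The triangle of DKO replicate 2 lies above the other DKO arrays for S100a8, Ltf, Epx and Ear1, and Ms4a3 shows overlapping groups.

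Genes of earlier granulocyte and monocyte progenitors had overlapping groups. Of 6 tested, 2 had lower and 4 higher means, with a median of 0.12 that turned to -0.44 without DKO replicate 2 and to -0.53 without p110α-/- replicate 2. Ms4a3, a membrane protein of these progenitors, measured 14.17, 16.23 and 13.65 in DKO and 14.20, 12.49 and 16.16 in p110α-/-. The groups were mixed, as they were for Ly6c2, which encodes a Ly6C antigen (0.12, SE 0.93). Ctsg, the primary granule protease cathepsin G, is not among these 6 and was the neutrophil granule list's member with a higher mean. It measured 13.91, 14.40 and 13.54 in DKO and 13.47, 11.77 and 14.70 in p110α-/-. Fcnb, the ficolin B gene, had the lowest difference of the 6 at -3.06 (SE 1.202), and its groups overlapped too.

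The list of innate receptors of myeloid cells, which includes the calprotectin genes, had lower means in DKO for 8 of 9 tested members. The median of the 9 was -1.86. Lower without overlap was 1 of them, beside 52 of the 283 named genes and 5.97% of all clusters. Trem1, which amplifies inflammatory signals, measured 8.32, 9.04 and 7.28 in DKO, against 10.75, 11.40 and 12.33 in p110α-/-. All DKO arrays were lower by more than a log2 unit, with a difference of -3.28 (SE 0.50, limma adjusted p 0.204). The lectin receptor gene Clec4a2 differed by -2.27 (SE 0.84) and the paired receptor Pilra by -1.86 (SE 0.62). Trem3, a close relative of Trem1, differed by -1.10 (SE 0.96). Clec7a, the β-glucan receptor dectin-1, was at 0.24 (SE 1.09).

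Mast cell, basophil and eosinophil genes followed DKO replicate 2 as well. Epx, the eosinophil peroxidase, measured 6.52, 12.13 and 5.86 in DKO, against 12.29, 8.74 and 10.96 in p110α-/-. Ear1, an eosinophil ribonuclease, measured 8.01, 14.15 and 7.43 in DKO, against 12.48, 10.27 and 11.15 in p110α-/-. In both genes 2 DKO arrays lay below all p110α-/- arrays while DKO replicate 2 was at the level of the highest or above. Histidine decarboxylase, Hdc, differed by -1.77 (SE 0.65) and the mast cell protease Cpa3 by 0.03 (SE 1.02), which turned to -0.92 without DKO replicate 2. The mean of the 4 genes was 7.53, 11.69 and 7.19 in DKO and 11.18, 9.28 and 10.19 in p110α-/-, and their part in the granulocyte result was not tested.

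Variable segments of the immunoglobulin heavy chain are read in early lymphoid cells before and during rearrangement. Of 12 Ighv genes tested, 11 had lower means in DKO, with a median of -0.88. Lower without overlap were 9, beside 52 of the 283 named genes and 5.97% of all clusters. Ighv1-31 is in both Ighv counts but was tested through its p110α-/- values, so it lends them no support. Without p110α-/- replicate 1 the same 12 genes had a median of -0.87, and the 11 that then passed the filter one of -0.53. Ighv1-12 measured 10.57, 9.90 and 10.66 in DKO, against 16.28, 15.54 and 14.67 in p110α-/-. The groups were far apart on all arrays, and the difference of -5.12 (SE 0.77) had a limma adjusted p of 0.204. Another Ighv1 gene, transcript cluster TC1200002652.mm.1, measured 6.39, 6.54 and 6.46 in DKO, against 8.14, 7.90 and 8.04 in p110α-/-, with little spread in either group and a difference of -1.56 (SE 0.18, limma adjusted p 0.162). Members of this family are close copies, so the probes of one can be read by transcripts of another.

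The remaining Ighv genes ranged from -2.54 for Ighv1-5 to 0.27 for Ighv5-12-4. Ighv1-31 measured 4.42, 4.32 and 4.11 in DKO, against 7.88, 7.26 and 4.62 in p110α-/-. Its p110α-/- replicate 3 lay near the DKO arrays, and all these 4 values were below the filter. Ighv1-34 differed by -1.58 (SE 0.35).

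In 3 kappa variable genes 1 array was high. Igkv5-48, a kappa variable gene, measured 3.90, 3.70 and 4.08 in DKO, against 11.76, 4.24 and 4.30 in p110α-/-. Only p110α-/- replicate 1 was high, as it was for Igkv10-95 and a member of the Igkv14 family. The median of the 4 Igkv genes tested was -0.50. Without that array the same 4 had a median of 0.02, and the 3 that then passed the filter one of 0.08. Jchain, which joins immunoglobulin chains in secreted antibody, measured 4.77, 4.96 and 5.77 in DKO, against 9.48, 6.36 and 6.36 in p110α-/-. Its groups did not overlap, with p110α-/- replicate 1 well above the rest, and its difference lay between -2.76 and -1.20 over the alternatives. Jchain was the 1 member of the B cell and plasma cell list at hand, and the part of such cells in the heavy chain result was not tested.

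**Figure D4:**
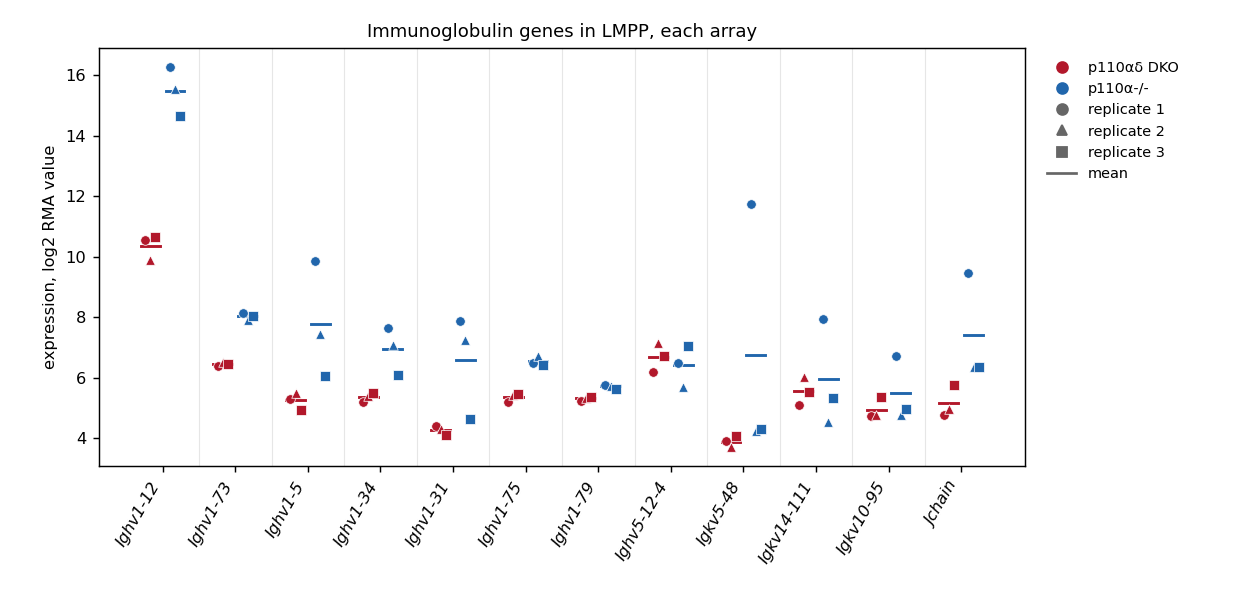
Log2 RMA values (vertical axis) of 12 immunoglobulin genes in each LMPP array, red for DKO and blue for p110α-/-, with marker shape for the replicate and a bar for the mean. Ighv1-12 and the gene to its right separate the groups on all arrays, while Igkv5-48 is high in p110α-/- replicate 1 alone.

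Further genes with lower values and no overlap had other roles. Plk3, a stress-responsive polo-like kinase, measured 8.62, 8.99 and 8.74 in DKO, against 10.87, 9.94 and 10.41 in p110α-/-. The gap between its groups was clear. Its relative Plk2, a p53 target, differed by -1.23 (SE 0.48). The RNA-binding regulators of cytoplasmic polyadenylation Cpeb4 and Cpeb2 differed by -1.01 (SE 0.20) and -1.14 (SE 0.25). Acpp, an acid phosphatase, differed by -1.64 (SE 0.36).

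Gimap4 had the largest higher value among the named genes. It encodes a GTPase of the immunity-associated family, which is known for roles in lymphocyte survival. It measured 7.91, 7.22 and 7.79 in DKO, against 5.77, 5.10 and 4.80 in p110α-/-. The groups lay more than a log2 unit apart, with a difference of 2.42 (SE 0.33, limma adjusted p 0.194). Gimap6 of the same family differed by 0.54 (SE 0.42) and overlapped, and these were the 2 members of the lymphoid priming list at hand. Il10ra, the interleukin-10 receptor chain, measured 8.07, 8.11 and 7.61 in DKO, against 6.51, 6.78 and 6.47 in p110α-/-, a difference of 1.35 (SE 0.41).

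Other genes with higher values and no overlap had smaller differences. Dhrs3, which reduces retinal to retinol, measured 13.06, 12.32 and 12.76 in DKO, against 11.21, 11.67 and 11.03 in p110α-/-, a difference of 1.41 (SE 0.33). Srm, spermidine synthase, measured 11.34, 11.19 and 11.10 in DKO, against 10.34, 10.40 and 10.75 in p110α-/-. Ctse, the aspartic protease cathepsin E, measured 11.04, 10.71 and 11.15 in DKO, against 10.07, 10.54 and 10.17 in p110α-/-. Srm and Ctse each differed by 0.71 with a small gap between groups. The differences of Apol7e, Dtwd1, the zinc finger gene Zfp748, Cyp2j6, Lix1l and Slc35e3 lay between 0.64 and 1.26. None of these passed, with limma adjusted p from 0.436 to 0.638.

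Of the 3 interferon-induced genes tested, Irgm2, an immunity-related GTPase, differed by 0.95 (SE 0.24) and Ifit2, which binds viral RNA, by 0.83 (SE 0.27). Both were higher without overlap, beside 39 of the 283 named genes and 6.37% of all clusters on that side. Ddx58, the RNA sensor RIG-I, differed by -0.21 (SE 0.37). Among 7 genes of HSC identity, Tek, the angiopoietin receptor, measured 6.94, 7.27 and 6.98 in DKO, against 6.19, 6.01 and 6.20 in p110α-/-, without overlap. Selp, the adhesion molecule P-selectin, differed by 0.98 (SE 0.30) and overlapped, and Vwf by 0.07 (SE 0.15). The list's median was 0.07.

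Mitotic genes had differences near 0. The 7 tested genes of G2 and M phase lay between -0.17 (Aspm) and 0.07 (Kif11), with a median of -0.04, and DNA topoisomerase Top2a measured 12.98, 13.24 and 13.13 in DKO and 13.11, 13.06 and 13.13 in p110α-/-. The replication licensing gene Cdc6 differed by 0.29 (SE 0.25). The autophagy receptor gene Sqstm1 differed by -0.75 (SE 0.34) and the lipid transport gene Vps13c by 0.37 (SE 0.14).

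Pik3cd lies on chromosome 4, and Dhrs3 and Srm are among the named genes nearest to it in RefSeq's gene order, 148 and 32 genes before it. Vamp3, a vesicle fusion protein 35 genes after it, differed by -1.17 (SE 0.31) without overlap. An unnamed cluster of the same chromosome, TC0400001906.mm.1, was chosen after its values were seen. It measured 9.33, 9.67 and 7.19 in DKO LMPP, against 4.77, 5.07 and 4.94 in p110α-/- LMPP. It was high in all DKO arrays and near the filter in all p110α-/- arrays. The p110δ-/- LMPP arrays measured 8.96, 9.10 and 8.23, against 5.47 and 6.15 in WT. For genes of this chromosome, loss of p110δ and sequence that travels with the deleted Pik3cd allele cannot be told apart.

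The same contrast in HSC asked whether the LMPP values had a counterpart in stem cells. Limma made 3 calls among 32979 clusters there (0.0091%), with 1926 at an unadjusted p below 0.05 (5.84%). Groups did not overlap for 4.54% of clusters on the lower and 6.37% on the higher side. The calls were TC0400001906.mm.1, higher by 3.997 (SE 0.38), an unnamed chromosome 19 cluster, TC1900001383.mm.1, higher by 1.185 (SE 0.12), and the predicted gene Gm5945, lower by 2.19 on the log2 scale (SE 0.19), each with a limma adjusted p of 0.0480. These 3 were named after their values were seen, and none of them was called when any 1 of 5 HSC arrays was left out. In LMPP Gm5945 measured 5.91, 6.45 and 6.06 in DKO, against 7.72, 7.64 and 7.40 in p110α-/-, also without overlap.

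Of the 60 named genes at or below -1 in LMPP and tested in both cell types, 37 had lower means in HSC DKO, with a median of -0.10 in HSC. The immediate early and quiescence list had 4 of 4 lower means in HSC (median -1.38) and the NF-kB and interleukin-1 list 5 of 7 (median -0.75). The FOXO list had 7 of 11 (median -0.36) and the insulin, PI3K and mTOR list 2 of 7 (median 0.20). Nr4a1 differed by -1.63 in HSC, Cdkn1a by -1.54, Klf4 by -1.23 and Plaur by -1.58, beside -2.13, -1.66, -1.26 and -2.51 in LMPP. The 9 neutrophil granule genes tested in HSC had a median of 0.22, with Ltf at 0.33 and Retnlg at 0.40. The Ighv median in HSC was -0.004 over 8 genes and Ighv1-12 was at -0.31. Gimap4 and Dhrs3 were higher in HSC DKO without overlap, by 1.63 and 0.92.

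**Figure D5:**
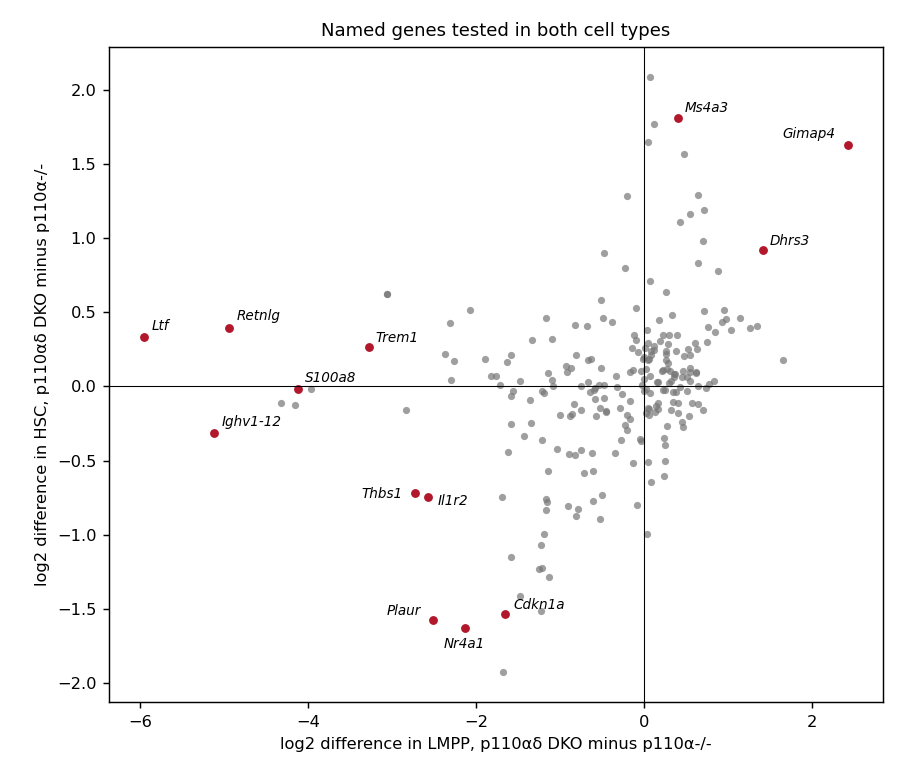
Log2 differences of DKO minus p110α-/- in LMPP (horizontal axis) and in HSC (vertical axis) for the 245 named genes tested in both, one point per gene. Nr4a1, Plaur and Cdkn1a lie low on both axes, Gimap4 high on both, and Ltf, Retnlg and Trem1 low in LMPP with HSC values between 0.26 and 0.40.

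The difference between the cell types itself was tested in 1 fit of the 18 knockout arrays, which treated HSC and LMPP arrays as independent. Limma made 0 calls (0.0%), and 1219 clusters had an unadjusted p below 0.05 (3.7%). The smallest limma adjusted p among named genes was 0.252, shared by Trem1 (-3.54, LMPP minus HSC) and a pair of Ighv1 genes (-1.64 and -1.53). Adam8 (-2.08), Ighv1-12 (-4.81), Acpp (-1.80) and Ighv1-34 (-1.79) were among those that followed. Trem1 averaged 8.22 in DKO and 11.50 in p110α-/- LMPP, and 5.83 in DKO and 5.57 in p110α-/- HSC.

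The last comparison asked whether loss of p110δ gave other values with p110α present, in p110δ-/- against WT LMPP, than without it. The arrays of these 2 contrasts are separate, but the fit shares their spread. The neutrophil granule median was -2.69 without p110α and -3.81 with it, and that of the NF-kB and interleukin-1 list -1.17 and -1.38. That of the immediate early and quiescence list was -1.46 and -1.32, and that of Ighv genes -0.88 and -1.49. Of the 303 named genes, the authors listed 153 for a difference between p110δ-/- and WT LMPP. The medians with p110α thus rest in part on genes chosen by that same contrast, and are no independent evidence of its direction or size. Thbs1 differed by -2.73 without p110α and by -0.53 with it, and Gimap4 by 2.42 and 0.33. Limma made 0 calls for the difference of the contrasts (0.0%), and 1771 clusters had an unadjusted p below 0.05 (5.37%). Its values were -2.20 for Thbs1, 2.09 for Gimap4, 2.65 for Ighv1-62-1 and 1.151 for Ighv1-79, each with a limma adjusted p of 0.855. The result rests on the WT arrays: without WT replicate 1 limma made 1479 calls, and without WT replicate 2 it made 0.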

How the data were processed

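The authors made log2 expression values per transcript cluster by RMA in Expression Console, per the labels. The submitters' processing notes also name Transcriptome Analysis Console. The authors' 6 comparison tables hold log2 averages, a signed linear fold (treated as a score) and unadjusted and FDR p-values against WT, per the file headers. Only their gene symbols were used for results. Build and annotation are not stated in the labels or headers read. The 299 deposited averages of p110α-/- LMPP matched, within 0.006 log2, replicates 1 and 2 with HSC p110α-/- replicate 2 for 100.0% of clusters, and the 3 labelled LMPP arrays for 14.0%, while those of DKO matched the labelled arrays for 100.0%. The labelled arrays were used here.

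Of 72688 value rows, 6732 array controls were left out, and clusters with a mean of at least log2 4.94, the median, over the 9 knockout LMPP arrays were tested. Limma 3.58.1 in R 4.3.3 (lmFit and eBayes, 1 mean per genotype, 6 residual degrees of freedom) was fitted to these arrays, with Benjamini-Hochberg adjustment over 32978 clusters and calls at adjusted p below 0.05. HSC arrays were fitted alike. The procedure was tested on simulated data. The number of arrays limits the precision.

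Members and gene lists were chosen with earlier results of these data known. Named genes carry exactly 1 symbol, with predicted genes, small RNAs and receptor families set aside. The text names up to 15 per direction by smallest p, from genes with separated groups and a fold of at least 1.5, since none passed, up to 8 members per list, and up to 8 genes with the smallest p in each test of a difference. Of the 303 symbols, 297 were in RefSeq's gene table and 4 among its synonyms. No member of the dendritic cell, T cell and NK cell, erythroid, mitochondrion or sex-linked lists carried a symbol. Alternatives changed the arrays fitted, sex as a covariate, weights, filter, scaling and test, and left out each array.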

Additional observations from a re-analysis of the deposited data

Results flagged for a closer look

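Ighv1-31 lay lower in DKO than in p110α-/- on all LMPP arrays, at -2.30 on the log2 scale, and higher on all HSC arrays, where it averaged 4.07 in DKO and 3.91 in p110α-/-. The HSC values and the DKO LMPP values are below the level at which clusters were tested, and the difference between the cell types was not tested for it. Ighv1-31 was not alone in this. Adam8 (-1.90 in LMPP and 0.18 in HSC), Tdgf1-ps2 (-0.48 and 0.90), another Ighv1 gene (-1.175 and 0.46) and Ighv1-79 were also lower on all LMPP and higher on all HSC arrays. None of these passed the test of the difference between the cell types.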

How the results depend on the processing

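The comparison of DKO with p110α-/- LMPP made 0 calls, and 2 with the WT arrays added, 1 with sex as a covariate, 3 with array weights and 2 among the brightest 25% of clusters, and leaving out 1 array gave 0 to 4. Il1r2 was among the calls with WT, sex, weights, the brightest clusters and without DKO replicate 2, and Plaur with WT, weights and the brightest clusters. Clusters at an unadjusted p below 0.05 came to 3751 with no filter, as more were tested, and to 1377 among the brightest. The HSC comparison made 0 calls with only its 6 arrays and 0 with sex as a covariate, and 0 to 4 without 1 array. The difference between cell types made 1 call with no filter and 0 to 9 without 1 array, the 9 without p110α-/- replicate 1. The comparison with p110δ-/- minus WT made 0 to 1479 calls without 1 WT array. The causes were not tested. The labels give no replicate numbers, and those used here follow the order of the arrays in the series. Titles number HSC and LMPP arrays of a genotype in sequence, with like sex, but do not say that they share mice. No paired analysis was run.

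Under array weights Cpa3 was at -0.54, Insr at 0.046, Top2a at -0.015, Kif11 at -0.20 and Vwf at -0.036, and the medians of the megakaryocyte and insulin lists at -0.036 and 0.046. Among the brightest clusters the megakaryocyte median was -0.87 and that of all named genes 0.00495. After quantile normalisation Insr was at 0.028, and Rictor and the insulin median at 0.040. With male arrays only, added after seeing the data and with no test, Ctsg was at -0.36, Clec7a at -1.25, Ly6c2 at -0.88, Ms4a3 at -1.27, Cpa3 at -1.09, Ighv5-12-4 at -0.31, Il1r1 at 0.092, Insr at 0.35, Rictor at 0.32, Top2a at -0.064, Kif11 at -0.11 and Ddx58 at 0.29. Leaving out 1 array gave ranges across 0 of -0.36 to 0.057 for Aspm, -0.23 to 0.21 for Rictor, -1.10 to 0.60 for the Igkv14 gene, -0.91 to 0.083 for Igkv10-95, -0.13 to 1.33 for Ctsg, -0.67 to 1.135 for Clec7a and -0.50 to 0.57 for Ly6c2. The ranges were -0.50 to 1.33 for Ms4a3, -0.92 to 0.78 for Cpa3, -0.082 to 0.59 for Ighv5-12-4, -0.29 to 0.31 for Insr, -0.043 to 0.089 for Top2a, -0.61 to 0.058 for Ddx58, -0.48 to 0.00084 for Il1r1, -0.19 to 0.26 for Kif11 and -0.066 to 0.14 for Vwf. List medians ranged from -0.23 to 0.057 for G2 and M phase, -1.002 to 0.083 for Igkv, -0.53 to 0.69 for early progenitors, -0.18 to 0.21 for the insulin list and -0.066 to 0.14 for megakaryocyte genes. The alternatives were followed for named genes given in this text and for list medians, and among these no other changed sign. The remaining named genes were not followed.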
